A study of Mus musculus with 8 samples.

Results

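The β-cell disallowed genes followed here, in islets that overexpress *Ucp2*, were *Slc16a1*, *Oat*, *Acot7*, *Pdgfra*, *Igfbp4*, *Rest*, *Maf*, *Smad3* and *Zyx*. The members were taken by gene symbol, with every probe that the deposited array table assigns to a listed symbol. These 9 genes had 19 of the 56605 probes, out of 26894 gene symbols on the array. Disallowed genes are active in most tissues but are kept silent in mature β-cells, where their products would let fuels other than glucose trigger insulin release, or would interfere with secretion and with the mature cell state. The best known pair is *Slc16a1*, which encodes the plasma membrane carrier MCT1 for lactate and pyruvate, and *Ldha*, which makes lactate from pyruvate. Their silence keeps circulating pyruvate and lactate from entering β-cell metabolism, and a gain of disallowed genes is commonly used as a sign of lost β-cell identity.

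The βUCP2Tg mouse carries mouse *Ucp2* cDNA, encoding an uncoupling protein of the mitochondrial inner membrane, behind a rat *Ins2* promoter and a rabbit β-globin intron, which limits its expression to insulin-producing cells. Islets from 4 βUCP2Tg samples and 4 WT samples were compared, all from male mice backcrossed to C57BL6/J, with littermates as WT, at an age of 8 to 20 weeks (8 to 12 weeks in the general islet protocol). Handpicked islets of both genotypes were kept for 8 h in RPMI medium with serum and 200 mg/dL glucose before RNA was taken. Neither the labels nor the methods tell whether a sample is 1 mouse or a pool, so n, SD and p refer to samples and may hold technical spread only. Whole islets also contain endocrine cells of other types, vessels, stroma and leukocytes, and in such bulk RNA, fewer cells of a type and less RNA per cell cannot be told apart.

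The brighter probe of *Ucp2* (A_51_P297105) had log2 levels from 6.99 to 7.71 on the βUCP2Tg arrays and from 0.92 to 1.46 on the WT arrays, in keeping with every label. The other (A_52_P90265) was at 0.78 to 0.90 in βUCP2Tg and 0.22 to 0.73 in WT and was not called (log2 difference 0.44, adjusted p = 0.0987 by limma), and no source used here says which probe lies in the transgene. A level is log2 of the background-subtracted intensity after scaling each array to its 75th percentile, so that levels can be compared between arrays for the same probe but not between probes. Summed over the β-cell markers, insulin among them, the log2 level was 10.1 to 10.6 in βUCP2Tg and 10.5 to 10.6 in WT. This sum follows the brightest genes and does not show the level of each marker. The arrays shared a slide with each genotype in its own row, so position and genotype cannot be told apart. The arrays of a genotype were not equally alike, which matters for most values below. WT replicate 1 had a mean correlation of 0.974 with the other WT arrays and 0.983 with the βUCP2Tg arrays, and βUCP2Tg replicate 4 had 0.987 with its own group, the lowest of the 4 βUCP2Tg arrays, and 0.985 with WT. WT replicate 4 was also about as close to βUCP2Tg (0.982) as to WT (0.983). Below, βUCP2Tg replicate 4 and WT replicate 1 are the arrays said to stand apart, a choice made with earlier results of these data known.

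The sequences upstream of *Slc16a1*, *Oat* and *Zyx* are shown because these 3 members had the largest differences and varied together from array to array. Each line gives the 250 bases before the annotated start (RefSeq, GRCm38.p6), 5′ to 3′ on the strand of the gene. Capitals mark ACGTG as well as GGGCGG and also CCAAT or their reverse complements.
*Slc16a1*, chr3:104638414-104638663, plus strand: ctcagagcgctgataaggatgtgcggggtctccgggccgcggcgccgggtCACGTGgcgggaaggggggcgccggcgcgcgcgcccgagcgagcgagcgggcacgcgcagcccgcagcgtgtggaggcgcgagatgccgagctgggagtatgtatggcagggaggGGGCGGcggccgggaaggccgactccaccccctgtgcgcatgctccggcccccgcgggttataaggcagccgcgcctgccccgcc
*Oat*, chr7:132576399-132576648, minus strand: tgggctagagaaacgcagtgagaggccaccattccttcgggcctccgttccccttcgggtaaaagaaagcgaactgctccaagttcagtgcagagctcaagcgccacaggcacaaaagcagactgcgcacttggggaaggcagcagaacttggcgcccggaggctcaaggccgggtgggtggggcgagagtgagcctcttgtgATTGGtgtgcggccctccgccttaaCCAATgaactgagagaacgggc
*Zyx*, chr6:42349578-42349827, plus strand: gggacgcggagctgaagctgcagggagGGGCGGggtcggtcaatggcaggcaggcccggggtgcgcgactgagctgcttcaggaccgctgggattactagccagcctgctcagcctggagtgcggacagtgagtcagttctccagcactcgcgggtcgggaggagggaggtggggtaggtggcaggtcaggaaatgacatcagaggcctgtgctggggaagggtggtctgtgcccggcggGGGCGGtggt

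Upstream entries were at hand for 7 of the 9 members, *Rest* and *Maf* excepted. The *Slc16a1* window was the richest in CpG among them, with 37 CpG sites, more than in 97.8% of all 32851 promoters of the same length. The *Oat* window held 14 CpG sites and that of *Zyx* held 15, against a median of 6 over all promoters. The windows of *Igfbp4* and *Smad3* held 22 each, that of *Acot7* 6 and that of *Pdgfra* 4. CACGTG, a palindrome that contains ACGTG on both strands, occurred once in the *Slc16a1* window and in none of the other members' windows. CACGTG is present in 6.02% of all promoters and ACGTG in 16.6%. GGGCGG was found once for *Slc16a1* and at 2 places each for *Zyx*, *Smad3* and *Acot7*, and 32.7% of all promoters hold it. The *Oat* window had CCAAT at 2 places, once on each strand, as do 33.8% of promoters at least once. TATAAA, present in 12.4% of promoters, was found for *Igfbp4* alone. A match of letters in these windows is a description of the sequence and not a binding site.

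No member passed the test between the genotypes. Of the 19 probes, 14 from 8 genes were bright enough to be tested, that is, well above background on 4 arrays or more, and 12 of them on every array. By limma with Benjamini-Hochberg adjustment over all 35363 tested probes, 0 of the 14 were called (adjusted p under 0.05 with a change of more than 1.5-fold), where 0.410% of all probes were called. The methods' t-test with the same adjustment and fold limit called none of the members and 0.0735% of all probes. Without adjustment, it put 1 of the 14 probes, that of *Slc16a1*, past the same limits, and 8.01% of all probes. Of the 14, 3 had an unadjusted p under 0.05 (21.4%), against 25.2% of all tested probes, and all 3 were lower in βUCP2Tg (15.2% of all probes). Those probes belong to *Slc16a1*, *Oat* and *Zyx*. The βUCP2Tg and WT arrays overlapped for each of the 14 probes, whereas 12.4% of all tested probes had groups that do not overlap. Over the brightest tested probe of each gene, the median log2 difference was -0.15 for the 8 members and 0.03 for all 17860 genes tested, with 6 members below 0 and 2 above. No disallowed member was thus called higher in the islets with extra *Ucp2*.

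**Figure D1:**
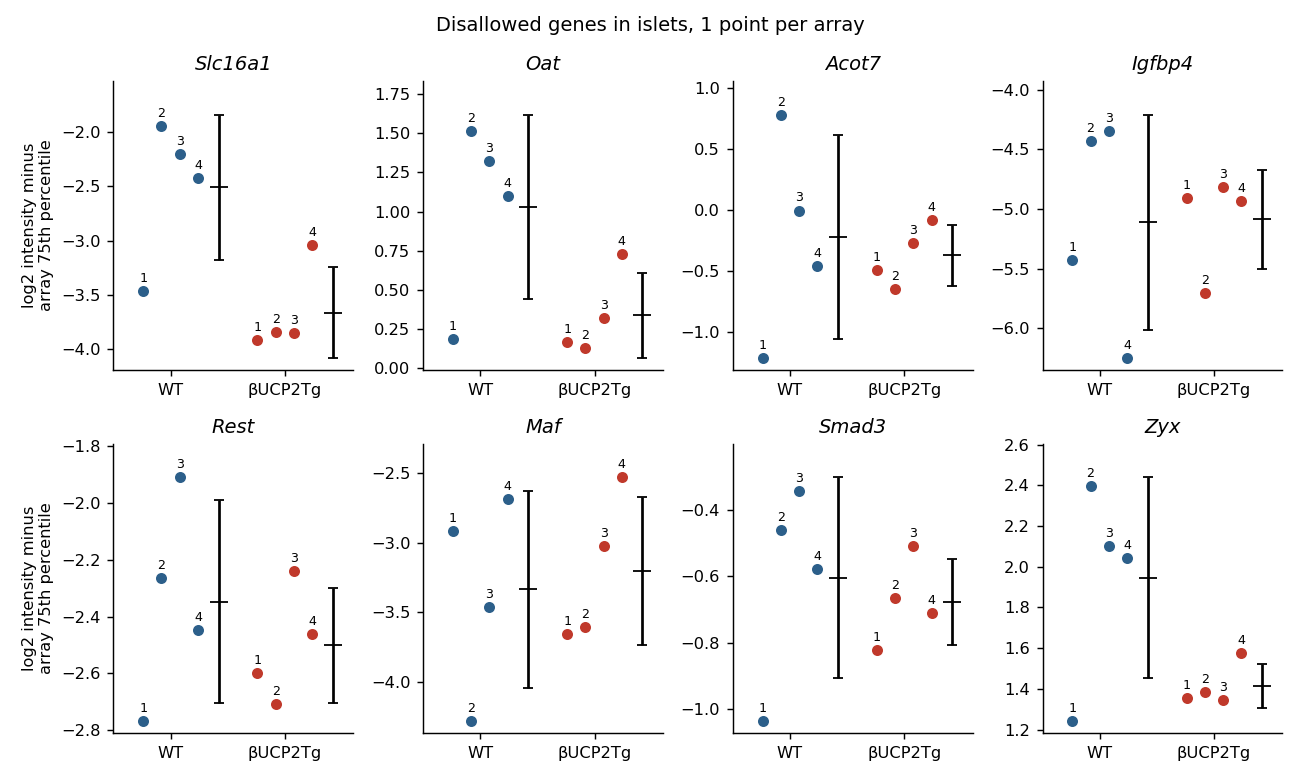
Log2 level (intensity scaled to the 75th percentile of its array) of the brightest tested probe of 8 members, with 1 point per array, numbered by replicate, and the mean with SD at the right of each group. For *Slc16a1*, *Oat* and *Zyx*, WT replicates 2 to 4 lie above all βUCP2Tg arrays, and WT replicate 1 lies with the βUCP2Tg arrays. Each panel has its own axis, and levels are not comparable between panels.

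*Slc16a1* had the largest difference among the members. Its only probe (A_51_P397367, which begins with atgggttcagtgtaaggataagaggaaaga) had log2 levels of -3.92, -3.84, -3.85 and -3.04 on the 4 βUCP2Tg arrays and -3.46, -1.94, -2.21 and -2.42 on the 4 WT arrays, in the order of the replicates. It was dim but well above background on all 8 arrays. WT replicate 1 lay among the βUCP2Tg values, and the other WT arrays lay above all of them. The mean was -3.66 ± 0.42 (SD, n = 4) in βUCP2Tg and -2.51 ± 0.67 (SD, n = 4) in WT. This is a log2 difference of -1.15 (standard error 0.34, 95% interval -1.93 to -0.37), or 2.22-fold lower, with an adjusted p of 0.109 by limma and p = 0.0571 in a two-sided exact permutation test. Without WT replicate 1, the log2 difference was -1.47 and the probe was called (adjusted p = 0.0163 by limma).

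Of the 8 genes listed for monocarboxylate transport, the MCT family and its chaperones, all were tested and 0 were called. With at least 1 probe, 1 gene was higher and 3 were lower at an unadjusted p under 0.05, which holds for 15.2% (higher) and 18.6% (lower) of all 17860 tested genes. The largest difference was that of *Slc16a3*, which encodes MCT4, the carrier that exports lactate from glycolytic cells. Its log2 levels were -0.63, -0.58, -0.29 and 1.92 in βUCP2Tg and 0.79, 2.62, 2.60 and 2.60 in WT. Both arrays that stood apart thus lay between the rest of their groups, and the difference of -2.05 (standard error 0.65) had an adjusted p of 0.118 by limma. *Bsg*, the chaperone that brings MCT1 and MCT4 to the membrane, differed by -0.13 (adjusted p = 0.617 by limma). Without WT replicate 1, 3 of the 8 genes were called lower and 0 higher (7.30% and 7.89% of all tested genes). *Slc16a3* was among those called (adjusted p = 0.0347 by limma).

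*Oat* encodes ornithine aminotransferase, a mitochondrial enzyme that links ornithine to glutamate and proline. Its probe (A_55_P2802986, which begins with ggcatttcatcacctattgagatcactggg) had log2 levels of 0.17, 0.13, 0.32 and 0.73 in βUCP2Tg and 0.19, 1.51, 1.32 and 1.10 in WT. The groups overlapped only through WT replicate 1. This held for *Slc16a1* too, but there WT replicate 1 lay below βUCP2Tg replicate 4 alone. The mean was 0.34 ± 0.27 (SD, n = 4) in βUCP2Tg and 1.03 ± 0.59 (SD, n = 4) in WT, a log2 difference of -0.69 (standard error 0.28, 95% interval -1.35 to -0.04). The adjusted p was 0.178 by limma, and the two-sided exact permutation test gave p = 0.0857. Without WT replicate 1 the difference was -0.97 and *Oat* was called (adjusted p = 0.0191 by limma).

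Around *Oat*, 8 of the 10 genes listed for ornithine and proline metabolism were tested and 0 were called. At an unadjusted p under 0.05, 3 of the 8 were higher and 1 lower, against 15.2% and 18.6% of all tested genes. *Odc1*, which turns ornithine into putrescine and so competes with *Oat* for its substrate, had the largest difference. Its log2 levels were 3.42, 3.46, 3.50 and 3.94 in βUCP2Tg and 3.87, 5.39, 4.91 and 4.77 in WT, a difference of -1.16 (standard error 0.30, adjusted p = 0.0899 by limma). Its WT replicate 1 again lay within the βUCP2Tg range.

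*Acot7* encodes an acyl-CoA thioesterase, which releases free fatty acids from their CoA esters. The probe for transcript variant 2 (A_51_P328652) had log2 levels of -0.49, -0.64, -0.27 and -0.08 in βUCP2Tg and -1.21, 0.78, -0.002 and -0.45 in WT. The WT arrays spanned 1.99 log2 units and enclosed all βUCP2Tg arrays, which spanned 0.57. The difference was -0.15 (standard error 0.38, 95% interval -1.01 to 0.72, adjusted p = 0.833 by limma), and the probe for transcript variant 1 (A_65_P03497) gave -0.17 (adjusted p = 0.751 by limma). Within the groups, both variants followed each other from array to array with a correlation of 0.96 over the 8 arrays. Of 13 further thioesterase genes, all tested, 0 were called, with 2 higher and 4 lower at an unadjusted p under 0.05 (15.2% and 18.6% of all tested genes). *Acot4*, a peroxisomal family member, differed most, at -0.55 (standard error 0.19, adjusted p = 0.137 by limma).

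*Pdgfra*, the receptor for PDGF on mesenchymal cells and on immature, dividing β-cells, did not rise well above background with any of its 3 probes, on any array. No level or fold change can be given for it. Among the PDGF ligands and other receptors, 5 of 6 genes were tested and 0 called, and 3 reached an unadjusted p under 0.05, all higher in βUCP2Tg (15.2% of all tested genes). *Pdgfrl*, a receptor-like gene without a kinase, differed most, with a log2 difference of 0.88 (standard error 0.26, adjusted p = 0.109 by limma). *Pdgfrb*, the receptor of pericytes, had log2 levels of -0.97, -0.83, -0.77 and -0.86 in βUCP2Tg and -1.41, -1.43, -1.11 and -1.10 in WT. For *Pdgfrb* the groups did not overlap, and the difference of 0.40 missed the threshold (adjusted p = 0.100 by limma).

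*Igfbp4* encodes a secreted protein that binds insulin-like growth factors and holds them from their receptor. One of its 2 probes (A_51_P398971) was at background on all 8 arrays, and the other (A_52_P257502) was well above it on 3 arrays of each group. The latter had log2 levels of -4.90, -5.70, -4.81 and -4.93 in βUCP2Tg and -5.43, -4.43, -4.34 and -6.25 in WT. The WT arrays scattered on both sides of the βUCP2Tg arrays, and the log2 difference was 0.02 with a wide interval (-0.96 to 1.01, adjusted p = 0.978 by limma).

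With all 8 arrays, the IGF axis held the only called gene in the lists drawn up around the members. *Igf1r*, the receptor for IGF1, was called lower with 2 of its 4 tested probes. The first (A_51_P318365) had log2 levels of 1.66, 1.53, 1.70 and 1.97 in βUCP2Tg and 2.48, 2.49, 2.79 and 2.69 in WT, a difference of -0.90 (standard error 0.13, adjusted p = 0.0456 by limma). The second (A_55_P2804885) differed by -1.60 (standard error 0.25, adjusted p = 0.0467 by limma). For both, no βUCP2Tg array reached the lowest WT array, but the brightest *Igf1r* probe, at -0.76, was not called (adjusted p = 0.0799 by limma). Both calls were lost when any 1 of βUCP2Tg replicates 1 to 3 or WT replicates 2 to 4 was left out, with adjusted p by limma up to 0.183 and log2 differences of -0.98 to -0.83 and of -1.85 to -1.45 over the 8 arrays left out in turn. They were also lost with the replicate number as a block (adjusted p = 0.120 and 0.137 by limma), with the methods' t-test and with looser filters on dim probes. Of the 12 genes listed, 9 were tested, with 1 higher and 4 lower at an unadjusted p under 0.05 (15.2% and 18.6% of all tested genes), and *Igfbp3*, another binding protein, had the largest difference among the brightest probes of each gene, at -1.23 (standard error 0.33, adjusted p = 0.0971 by limma). In all, 116 of 17860 tested genes (0.649%) had a called probe with all arrays. Without WT replicate 1, 4 of the 12 listed genes were called lower and 1 higher (7.30% and 7.89% of all tested genes). Calls then also appeared in most other lists drawn up around the members, but not for the *Rest* corepressors or the zyxin family.

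*Rest* encodes the repressor that keeps neuronal genes off outside neurons and whose absence lets β-cells express many of them. All of its 3 probes were well above background on every array. The probe of its mRNA record (A_55_P2143306) had log2 levels of -3.33, -3.75, -3.27 and -3.36 in βUCP2Tg and -3.79, -2.85, -2.79 and -3.13 in WT. WT replicate 1 was the lowest of the 8 arrays, and the difference was -0.29 (standard error 0.23, 95% interval -0.81 to 0.23, adjusted p = 0.451 by limma). The brightest probe (A_66_P109172) gave -0.15 (95% interval -0.59 to 0.28) and the other (A_51_P103229) -0.17 (95% interval -0.91 to 0.57), so all 3 intervals lay within a 2-fold change.

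*Rest* works through corepressors, and 8 of these were tested with 0 called. At an unadjusted p under 0.05, 1 was higher and 1 lower (15.2% and 18.6% of all tested genes). The largest difference was that of *Kdm1a*, the histone demethylase LSD1, with log2 levels from 4.05 to 4.14 in βUCP2Tg and from 3.75 to 3.88 in WT. Its groups did not overlap, but the difference of 0.29 was small (adjusted p = 0.100 by limma). Of 14 neuroendocrine genes listed as targets of REST, all were tested and 0 were called, with 1 gene higher and 5 lower at an unadjusted p under 0.05 (15.2% and 18.6% of all tested genes). *Unc13a*, which primes vesicles for release, had log2 levels of -1.91, -1.71, -1.97 and -0.35 in βUCP2Tg and -1.32, 0.66, 0.74 and 0.30 in WT. This was the same array pattern as for *Slc16a1*, and the difference of -1.58 (standard error 0.53) had an adjusted p of 0.127 by limma. Without WT replicate 1, 3 of the 14 target genes were called lower and 1 higher (7.30% and 7.89% of all tested genes).

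*Maf* encodes c-MAF, a basic leucine zipper transcription factor related to the β-cell factor MAFA. Its brightest probe (A_51_P405167) had log2 levels of -3.66, -3.60, -3.03 and -2.53 in βUCP2Tg and -2.92, -4.28, -3.46 and -2.68 in WT. The groups were mixed, with a difference of 0.13 (standard error 0.38, 95% interval -0.75 to 1.01, adjusted p = 0.856 by limma). The other tested probe (A_55_P2633949) gave -0.18 (adjusted p = 0.721 by limma), so the sign depended on the probe, and the remaining one was not well above background on a single array. Among the other MAF factors, 5 of 6 were tested and 0 called, with 3 lower at an unadjusted p under 0.05 (18.6% of all tested genes). *Maff*, a small MAF without an activation domain, differed most, at -1.23 (standard error 0.42, adjusted p = 0.134 by limma). *Mafa* had log2 levels from 1.84 to 2.09 in βUCP2Tg and from 2.14 to 2.35 in WT, a difference of -0.34 (adjusted p = 0.103 by limma) between groups that did not overlap.

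*Smad3* encodes a signal carrier from TGF-β receptors to the nucleus and restrains insulin gene expression. Its brighter probe (A_55_P2101001) had log2 levels of -0.82, -0.67, -0.51 and -0.71 in βUCP2Tg and -1.03, -0.46, -0.34 and -0.58 in WT. WT replicates 2 and 3 lay above the βUCP2Tg range, replicate 4 within it and replicate 1 below it. The difference was -0.07, with a standard error of 0.16 (adjusted p = 0.801 by limma), and its 95% interval of -0.43 to 0.29 was the narrowest of the 14 probes. The second probe (A_52_P352277) gave 0.06 (95% interval -0.36 to 0.48). Of 16 symbols listed for TGF-β and SMAD signalling, 15 were on the array and tested (*Ccn2* only under its older name *Ctgf*), and 0 were called, with 1 higher and 2 lower at an unadjusted p under 0.05 (15.2% and 18.6% of all tested genes). *Tgfb3*, one of the ligands, differed most, at -0.55 (standard error 0.17, adjusted p = 0.117 by limma).

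*Zyx* encodes zyxin, a LIM protein of focal adhesions and actin stress fibres. The probe for transcript variant 1 (A_51_P473252, which begins with acccaccttgctctgtgctgctaggttgtg) had log2 levels of 1.36, 1.38, 1.34 and 1.57 in βUCP2Tg and 1.24, 2.40, 2.10 and 2.04 in WT. The βUCP2Tg arrays lay within 0.23 log2 units of each other, and the WT arrays spanned 1.15 because of replicate 1, the lowest of all 8. The difference was -0.53 (standard error 0.23, 95% interval -1.05 to -0.01), 1.45-fold lower, with an adjusted p of 0.191 by limma and p = 0.143 in a two-sided exact permutation test. Without WT replicate 1 it was -0.77 and was called (adjusted p = 0.0156 by limma). The probe for transcript variant 2 (A_55_P2503485) was well above background on 2 arrays of each group and gave -0.36 with an interval from -1.67 to 0.94, so the variants could not be compared.

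The zyxin family and its partners at focal adhesions had 10 of 11 genes tested and 0 called, with 1 higher and 4 lower at an unadjusted p under 0.05 (15.2% and 18.6% of all tested genes). *Bcar1*, the adaptor p130Cas, differed most. Its log2 levels ran from 2.68 to 2.79 in βUCP2Tg and from 3.07 to 3.28 in WT, without overlap, and the difference was -0.47 (standard error 0.09, adjusted p = 0.0585 by limma).

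**Figure D2:**
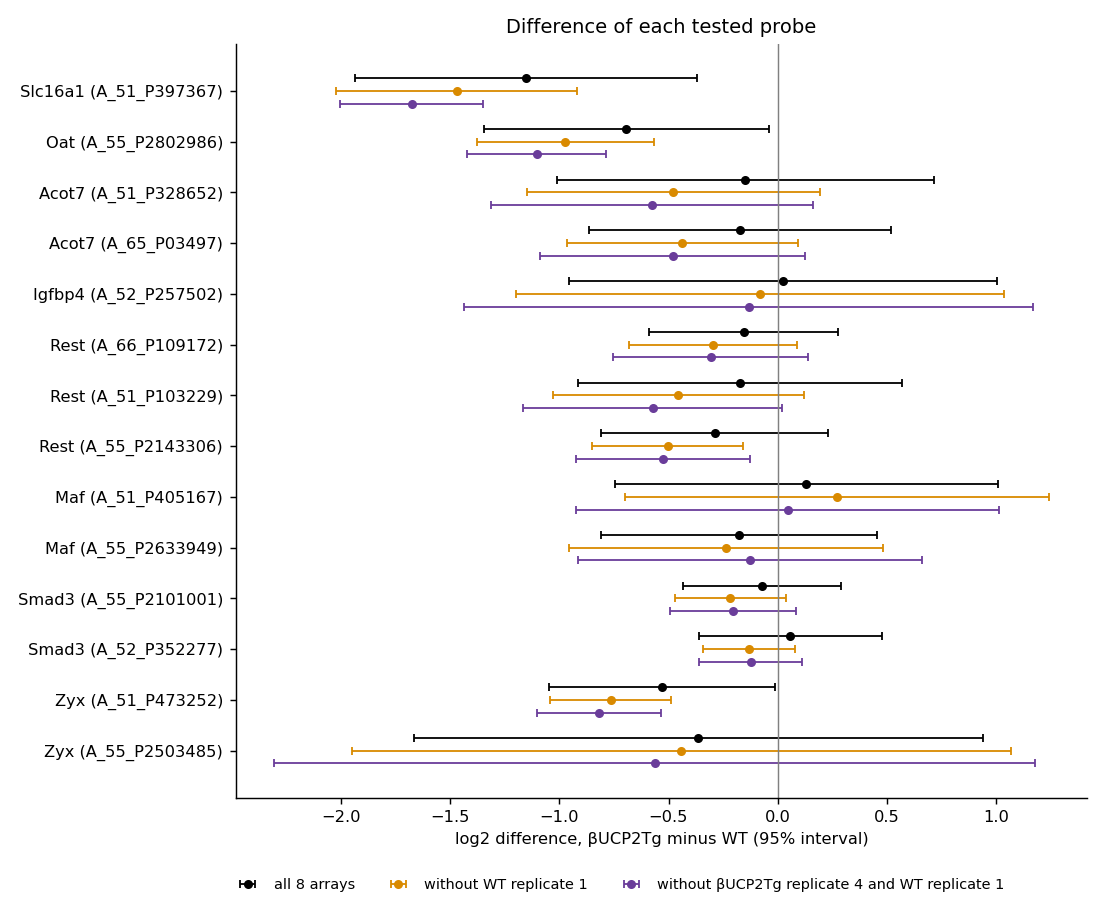
Log2 difference between βUCP2Tg and WT (points) with 95% intervals (bars) for the 14 tested probes of the members, with all 8 arrays (black), without WT replicate 1 (orange) and without βUCP2Tg replicate 4 and WT replicate 1 (purple). The *Slc16a1* estimate moved from -1.15 with all arrays to -1.47 and -1.68, while both *Smad3* probes stayed within 0.22 of 0.

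Single arrays set how many members were called. WT replicate 1 was the lowest WT array for 10 of the 14 tested member probes, while the highest βUCP2Tg array was replicate 4 for 7 and replicate 3 for 6. Without WT replicate 1, *Slc16a1*, *Oat* and *Zyx* were called lower, 3 of the 14 probes, where 5.67% of all probes tested were called lower. With βUCP2Tg replicate 4 left out as well, the same 3 genes were called lower, against 9.25% of all probes. Their log2 differences were then -1.68 for *Slc16a1* (adjusted p = 0.00136 by limma), -1.10 for *Oat* (adjusted p = 0.00409) and -0.82 for *Zyx* (adjusted p = 0.00713). Both arrays were left out because they were known to stand apart in these data, so the calls without them are not independent evidence. No member was called when any other array was left out, βUCP2Tg replicate 4 alone included.

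The members did not vary independently. After the mean of each group was subtracted, *Slc16a1* correlated with *Oat* at 0.98 and with *Zyx* at 0.94 over the 8 arrays, and *Oat* with *Zyx* at 0.96. *Acot7* followed them at 0.88 to 0.92 and *Smad3* at 0.71 to 0.81, while *Rest* correlated best with *Smad3* (0.88). *Maf* ran against the others, with correlations from -0.50 to -0.16. These values describe 8 arrays that share a slide and scaling, and WT replicate 1 weighs heavily in them.

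By the same measure over 35343 probes, the genes most like *Slc16a1* were *Scamp5* and *Gm2016* (0.997 and 0.996), those most like *Oat* were *Fam60a* and *Ajap1* (both 0.998), and those most like *Zyx* were *Arid5a* and *Dnajb5* (both 0.997). For *Acot7* these were *Stmn4* and *Spock3* (0.996 and 0.994), for *Maf* *Tardbp* and *Usp32* (0.993 and 0.989), and for *Smad3* *Traf3* and *Antxr1* (0.987 and 0.985). *Igfbp4* was most like *Ern1* and 2900057C01Rik (0.990 and 0.986), and *Rest* was most like *Ankrd17* (0.988). These values describe the pattern over 8 arrays only.

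**Figure D3:**
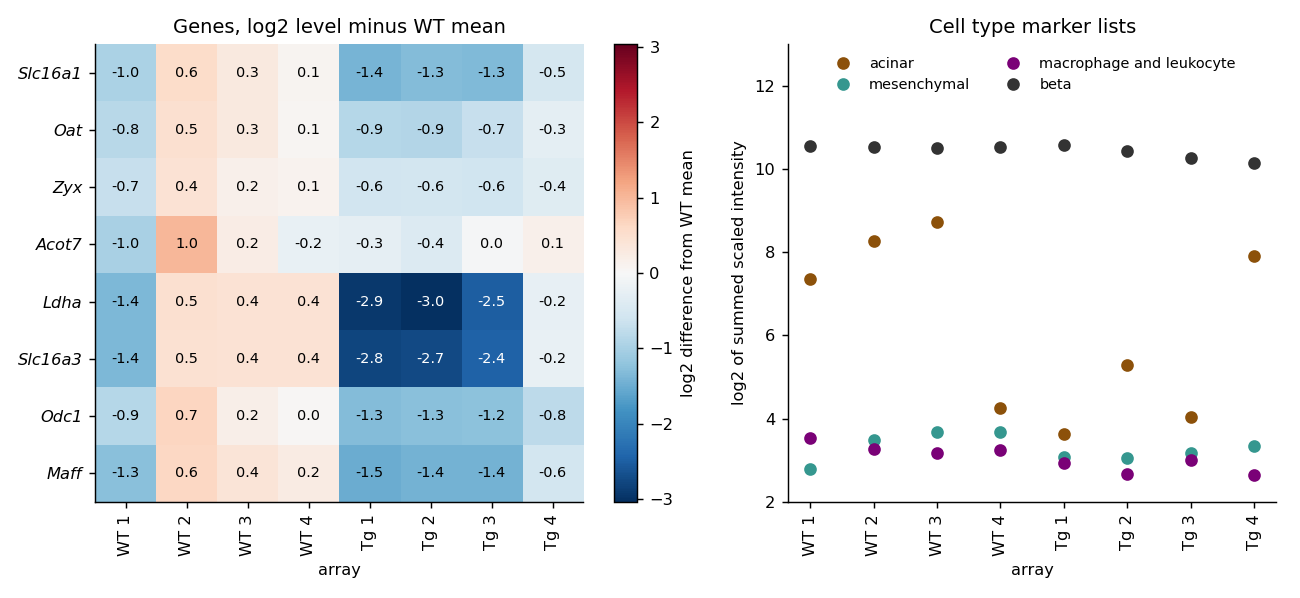
Left, log2 level of 4 members and of *Ldha*, *Slc16a3*, *Odc1* and *Maff* on each array minus the WT mean of the same gene (Tg, βUCP2Tg). Right, log2 of the summed scaled intensity of 4 cell type marker lists on the same arrays. WT replicate 1 is the lowest WT array for all 8 genes, and the acinar sum runs from 3.63 to 8.72 with the genotypes overlapping.

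Markers of other cell types also moved between arrays. The summed level of 8 mesenchymal markers was 2.80 on WT replicate 1 and 3.48 to 3.68 on the other WT arrays, with 3.05 to 3.34 in βUCP2Tg. WT replicate 1 was thus the lowest array for this list too. The sum follows the brightest genes, and 5 of the 8 markers had a higher mean in βUCP2Tg, with a median log2 difference of 0.32. For the 5 macrophage and leukocyte genes tested, the sum was 2.64 to 2.997 in βUCP2Tg and 3.18 to 3.52 in WT, with no overlap, and 0 of the 5 were called (median log2 difference -0.45, with 4 below 0). The acinar sum over 8 genes was 3.63 to 7.92 in βUCP2Tg and 4.26 to 8.72 in WT, high on βUCP2Tg replicate 4 and WT replicates 1 to 3. All 8 acinar genes had a lower mean in βUCP2Tg, with a median log2 difference of -1.92, and 0 were called. Markers entered these sums only when well above background on at least 4 arrays, so their detection was set by the filter. The part of these cells in the differences of the members was not tested.

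Among 20 further disallowed genes, all tested, 0 were called by limma with all arrays and 0 by the methods' t-test with Benjamini-Hochberg adjustment. Without adjustment, that test put 3 genes past a p under 0.05 and 1.5-fold, against 11.5% of all tested genes, with *Ldha* and *Cxcl12* lower and *Tst* higher. By limma, an unadjusted p under 0.05 was reached by 2 genes higher and 3 lower (15.2% and 18.6% of all tested genes). Their median log2 difference was 0.09, with 13 genes above 0 and 7 below. *Ldha* had the largest difference. Its brighter probe (A_55_P2012984) had log2 levels of 1.68, 1.57, 2.11 and 4.37 in βUCP2Tg and 3.25, 5.11, 5.05 and 5.05 in WT. βUCP2Tg replicate 4 and WT replicate 1 each lay between the rest of the groups, as for *Slc16a3*. The difference was -2.18, with a standard error of 0.68 (adjusted p = 0.116 by limma), and its second probe (A_55_P2141876) gave -2.13 (adjusted p = 0.125 by limma). *Slc16a1* and *Ldha* correlated at 0.89 within the groups.

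*Tst*, a mitochondrial sulfurtransferase that detoxifies cyanide, was the disallowed gene highest in βUCP2Tg relative to its spread. Its log2 levels were -3.04, -2.23, -2.17 and -2.87 in βUCP2Tg and -3.31, -3.69, -3.48 and -3.49 in WT. The groups did not overlap, and the difference was 0.92 (standard error 0.21, adjusted p = 0.0832 by limma). *Cat*, encoding catalase, was also at the higher end, with a difference of 0.69 (adjusted p = 0.157 by limma). *Mgst1*, a glutathione transferase, had the largest positive difference, at 1.48 (adjusted p = 0.309 by limma), with βUCP2Tg replicate 3 at 0.84 against -3.39 to -2.35 on the other βUCP2Tg arrays. Without that replicate, its difference was 0.55 (adjusted p = 0.439 by limma). *Cxcl12*, a chemokine, had a dimmer probe (A_55_P1966204) at -1.22 (standard error 0.22, adjusted p = 0.0585 by limma) and a brighter one at -0.47 (adjusted p = 0.524 by limma). The 4 tested probes of *Hk1*, the low-Km hexokinase that β-cells replace by glucokinase, disagreed, with the brightest (A_55_P2037398) at 0.03 and another (A_55_P2027999) at -1.13 (adjusted p = 0.181 by limma).

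**Figure D4:**
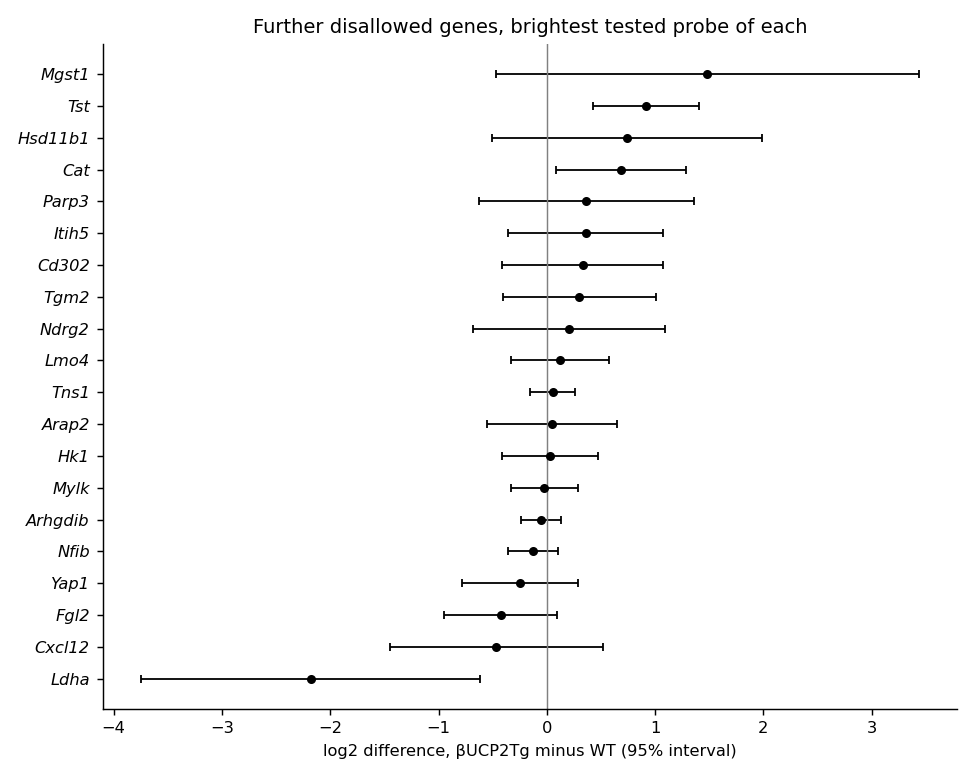
Log2 difference between βUCP2Tg and WT (points) with 95% intervals (bars) for the brightest tested probe of 20 further disallowed genes. *Ldha* lies lowest at -2.18 and *Mgst1* highest at 1.48, and none was called after adjustment over all probes.

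Without WT replicate 1, 4 of the 20 genes were called lower (*Ldha*, *Cxcl12*, *Fgl2* and *Hk1*, of which *Cxcl12* with only the dimmer of 2 probes and *Hk1* with 1 of 4) and 1 higher (*Tst*), where 7.30% of all tested genes were called lower and 7.89% higher. Without both arrays that stood apart, 4 were called lower (11.6% of all tested genes) and 2 higher (10.4%), *Tst* and *Cat*. *Ldha* then differed by -3.28 (adjusted p = 0.000319 by limma), the largest difference among all disallowed genes examined.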

How the data were processed

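The authors hybridised Cy3-labelled islet RNA to one-colour Agilent arrays and deposited scanner files, whose processed intensity is background-subtracted by Feature Extraction (10.7.3.1 in the file headers, 9.1 in the submitters' processing notes), on a linear scale and not scaled between arrays. The authors also deposited a GeneSpring table with log2 values, which are log2 of the intensity shifted by a constant for each array. Its columns of fold change, log2 fold change, p-value and corrected p-value are the authors' own comparison, labelled a moderated t-test, and were not used. The headers name mm9, so no coordinates of probes are given.

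Control and outlier spots were left out, log2 intensities were scaled to the 75th percentile of their array, and spots of a probe were averaged. Probes counted as well above background when 50% or more of their spots were so flagged, and those above it on at least 4 arrays were tested with limma 3.58.1 in R 4.3.3 (lmFit and eBayes, no covariate), with Benjamini-Hochberg adjustment. Calls required an adjusted p below 0.05 with a change of more than 1.5-fold, and a gene was called with any of its probes. The brightest tested probe stands for a gene. A simulation of this comparison changed 200 of 35363 probes and made 9 false calls. It recovered 58% of the probes changed by 2-fold and 94% of those changed by 4-fold. Such rates may not hold for the arrays themselves, where members varied together and *Ldha*, 4.53-fold lower, was not called. Marker lists were summed on the linear scale. Tables were read with pandas 2.3.3 and, in R, the package data.table, version 1.17.8, and plots drawn with matplotlib 3.10.9 under Python 3.11.15. Precision is limited by the number of arrays.

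The members, gene lists and alternatives were chosen with earlier results of these data known. Named are all probes of the members, every called gene and the gene with the largest change in each list, and the 2 genes most like each member, except those not reported here. Other genes were named after their values were seen. The alternatives were 3 other filters on dim probes, 5 other scalings or background corrections including the deposited values and normexp with an offset of 50, outliers kept, a floor of 5, the methods' t-test, an intensity trend, calls without a fold limit, all probes of a gene averaged, the replicate number as a block, and each array left out. RNA of all 8 samples was used, and no sample or array was excluded from the main comparison.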

Additional observations from a re-analysis of the deposited data

Results flagged for a closer look

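In 3 of 28 groups of 4 arrays examined over the tested member probes, 1 array lay far from the other 3, with a gap to its nearest neighbour, divided by the range of the group, larger than Dixon's test allows at a confidence of 95%. Chance gives about 1 such group in 20, or 1.4 here. *Slc16a1* was highest on βUCP2Tg replicate 4, with a gap ratio of 0.912 and a log2 level of -3.04, where the rest of the group lay between -3.92 and -3.84. *Igfbp4* (A_52_P257502) was lowest on βUCP2Tg replicate 2, with a gap ratio of 0.866 and a log2 level of -5.70 against -4.93 to -4.81. The probe of *Zyx* transcript variant 2 (A_55_P2503485) was lowest on βUCP2Tg replicate 3, with a gap ratio of 0.830 and a log2 level of -7.93 against -5.74 to -5.30, and this probe was not well above background there.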

How the results depend on the processing

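The count of members called was 0 with all arrays under each alternative in filter, scaling, background correction, floor and test. Leaving out 1 array gave between 0 and 3 members called, with 3 without WT replicate 1, and 3 were called without βUCP2Tg replicate 4 and WT replicate 1 together. For the further disallowed genes, the count rose from 0 to 1 (*Cxcl12*) with probes above background on all 8 arrays and with an intensity trend. It ranged from 0 to 5 with 1 array left out (3 without βUCP2Tg replicate 4, 5 without WT replicate 1) and was 6 without both. Over all probes, 73 were called higher and 72 lower, but 1787 and 1972 without WT replicate 1, 349 and 1118 without βUCP2Tg replicate 4, and 8 and 0 without βUCP2Tg replicate 1, 2 or 3.

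*Slc16a1*, *Oat*, *Rest* and *Zyx* were lower in βUCP2Tg in every alternative run. *Slc16a1* ranged from -1.47 to -0.96 with 1 array left out. It was -0.52 under normexp correction, which here adds an offset to every signal and is followed by quantile scaling. The sign of small differences turned. *Igfbp4* was -0.015 under normexp correction, -0.13 without both arrays, and -0.35 to 0.28 with 1 array left out. *Maf* was -0.022 as the mean of its probes and -0.18 to 0.35 with 1 array left out, *Acot7* -0.48 to 0.19, and *Smad3* 0.0018 under median scaling and -0.22 to 0.014 with 1 array left out.

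The replicate numbers did not pair the samples: same-numbered arrays correlated in their deviations at 0.437, -0.047, -0.0086 and -0.241. With the number as a block, 0 members and 0 further disallowed genes were called, *Slc16a1* had an adjusted p of 0.150, and 13 probes were higher and 1 lower over all. Dim signals limit *Pdgfra*, *Igfbp4* and *Zyx* variant 2.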

Other observations

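Other marker lists were examined as a description of the islet preparations. The 9 β-cell genes had 0 called, with a median log2 difference of -0.09, and *Nkx6-1* differed most, at 0.41 (adjusted p = 0.309 by limma). The α-cell list of 4 genes had a median of 0.16, with 0 called. The 3 δ-cell and PP-cell genes had a median of 0.27, the 5 endothelial genes -0.03 and the 3 Schwann cell genes -0.26, with 0 called in each. The 4 tested duct genes had a median of -0.63 and 0 called. At an unadjusted p under 0.05, 1 gene was higher and 2 were lower (15.2% and 18.6% of all tested genes). *Krt7*, a duct keratin, was at 0.70 and *Krt19*, another, had log2 levels from -3.53 to -3.17 in βUCP2Tg and from -2.31 to -0.64 in WT. The groups did not overlap for *Krt19*, and its difference of -1.63 missed the threshold (adjusted p = 0.0686 by limma). Without WT replicate 1, 2 of the 4 duct genes were called lower and 1 higher (7.30% and 7.89% of all tested genes).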
